A study of Mus musculus with 15 samples.

Results

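Levels in the mammary tissue were followed for 6 genes of Schwann cells and their myelin, Sox10, Mbp, Pmp22, Prx, Cnp and S100b. They were taken by gene name from a table of 52526 genes measured in each of 15 mice, and all 6 were found. The mice were female nu/nu nude mice (Crl:NU-Foxn1nu), which carry a Foxn1 mutation, lack a thymus and have few T cells. From after 8 weeks of age, 7 of them received BDE-47, a polybrominated diphenyl ether flame retardant, in PEG300 with 1% DMSO from osmotic mini-pumps under the skin at a target of 0.03 mg/kg/d, and 8 received pumps with this vehicle alone, in both cases for 16 weeks. The left 4th mammary tissue of each mouse gave 1 library, so the spread given here is that between mice. A xenograft may have been present in some of the mice, since the study used its presence as a covariate, but the labels used here do not say in which.

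Schwann cells are the glia of peripheral nerve. One kind wraps a single large axon in compact myelin, and the other kind holds several thin axons without making myelin. Sox10 is the transcription factor that the whole lineage needs, and together with Egr2 it switches on the myelin genes. Mbp encodes myelin basic protein, which seals the inner faces of the membrane to each other, and Pmp22 encodes a membrane protein of compact myelin. Prx encodes periaxin, which links the outer Schwann cell membrane to the basal lamina. Cnp encodes a phosphodiesterase of the non-compact parts of the sheath, and S100b encodes a calcium-binding protein used as a stain for Schwann cells. In the mammary gland, nerve fibres run along the blood vessels and ducts and end in the nipple. Several of the genes are also known outside nerve: Sox10 in mammary epithelium, Pmp22 in fibroblasts and epithelium, S100b in adipocytes, and Cnp and Mbp at low levels in many cells.

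In the mouse genome (GRCm38.p6, RefSeq), Sox10 lies at chr15:79154913-79164490, Pmp22 at chr11:63128982-63159547, Prx at chr7:27499305-27520041, Cnp at chr11:100574909-100591875 and S100b at chr10:76253836-76261319. RefSeq lists 9 transcripts for Pmp22, 4 for Cnp, 3 for Prx and 1 each for Sox10 and S100b. The libraries read the 3′ ends of transcripts, so forms of a gene that share a 3′ end were counted together. RefSeq promoter windows were at hand for 4 of the 6 genes, Prx, S100b, Cnp and Pmp22, the last with 4 starts. The stretches from 250 to 51 bases before the start are shown for Prx, S100b and Cnp. Prx and S100b were the pair that varied most alike among the vehicle mice. Cnp had the largest difference in size between the groups, with the lower mean in BDE-47 mice. Capitals mark a match to the SOX letters ACAANG on either strand (CNTTGT on the other).

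Prx, chr7:27499074-27499273, + strand: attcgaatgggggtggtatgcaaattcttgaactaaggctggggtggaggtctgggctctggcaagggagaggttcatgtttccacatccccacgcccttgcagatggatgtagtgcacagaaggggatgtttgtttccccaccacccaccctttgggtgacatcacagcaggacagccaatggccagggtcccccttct
S100b, chr10:76253586-76253785, + strand: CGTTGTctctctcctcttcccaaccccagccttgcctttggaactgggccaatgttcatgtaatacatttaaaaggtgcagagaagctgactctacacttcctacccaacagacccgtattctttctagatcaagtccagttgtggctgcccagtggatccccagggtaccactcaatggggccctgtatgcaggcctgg
Cnp, chr11:100574689-100574888, + strand: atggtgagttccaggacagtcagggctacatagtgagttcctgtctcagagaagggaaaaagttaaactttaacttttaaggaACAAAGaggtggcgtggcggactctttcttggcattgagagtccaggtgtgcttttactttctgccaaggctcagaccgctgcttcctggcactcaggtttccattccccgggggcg

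The Cnp stretch held 1 match, ACAAAG, which begins 167 bases before the start. The S100b stretch held 1 match, CGTTGT, at its first base, 250 bases before the start. Prx and the 4 Pmp22 windows held none, and none of the 7 windows held the EGR letters GCGNGGGCG or their reverse, CGCCCNCGC. Among 32851 RefSeq windows of the same 200 bases outside chromosome 18, 31.0% held the SOX letters and 3.0% the EGR letters. The matches here are therefore a description of the sequence only.

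Levels are given as log2(CPM), the log2 of counts per 1000000 mapped reads, as deposited. A gene under 1 CPM is listed at 0, here called the floor. The libraries held 10061000 to 19575000 mapped reads, with a median of 15186500 in vehicle mice and 14375000 in BDE-47 mice. The floor therefore stands for about 10 to 20 reads. A gene listed at 0 fell under this cut, and whether it had some reads or none is not known. Since 1 tag near the 3′ end stands for 1 transcript, CPM was not divided by gene length. There were 3 libraries that stood apart in tissue content. In vehicle mice 6 and 8, all 8 of the B cell marker genes were above the floor, with summed levels of 632 and 697 CPM against at most 9.9 CPM in every other mouse, and their 8 adipocyte genes summed to 498 and 1174 CPM against 4033 to 32215 CPM elsewhere. In BDE-47 mouse 6, the 8 skeletal muscle genes summed to 108851 CPM against 48.4 to 213 CPM elsewhere.

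The 6 genes did not differ between BDE-47 and vehicle mice beyond the spread within the groups. Group means were higher in BDE-47 mice for Sox10 and Pmp22 and lower for Cnp and S100b, while those of Mbp and Prx were a little lower on the log2 scale and higher as mean CPM. By limma over the 9506 genes that reached 1 CPM in at least 7 of the 15 mice, none of the 4 that could be tested (Sox10, Mbp, Pmp22 and Cnp) passed a Benjamini-Hochberg adjusted p of 0.05, as was true of the whole table (0 of 9506 genes, 0% called). At an unadjusted limma p of 0.05, 442 of the 9506 genes (4.65%) were called and none of the 4 was among them. Prx and S100b reached 1 CPM in 6 and 5 mice, too few for that filter, so they were compared by exact permutation, with intervals from limma fitted without the filter.

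Sox10 was at the floor in 4 mice and well above it in most others. It stood at 5.63, 6.09, 3.61, 0, 4.97, 0, 4.69 and 0 log2(CPM) in vehicle mice 1 to 8. It stood at 5.69, 6.05, 5.08, 5.87, 5.83, 1.57 and 0 log2(CPM) in BDE-47 mice 1 to 7. The groups overlapped throughout: the highest mouse of each was near 6, and Sox10 was at the floor in 3 of the 8 vehicle mice and in 1 of those given BDE-47. The mean was 4.30 ± 2.46 (SD, n = 7) in BDE-47 mice and 3.12 ± 2.68 (SD, n = 8) in vehicle mice. The difference of 1.17 on the log2 scale had a limma standard error of 1.10 and a 95% interval of -1.04 to 3.39 (adjusted p = 0.982), and a two-sided exact permutation test over the mice gave p = 0.364. Without vehicle mice 6 and 8, both at the floor, the difference was 0.13 (exact permutation p = 0.939), and without BDE-47 mouse 6 as well it was 0.59 (exact permutation p = 0.541).

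The 4 mice with Sox10 at the floor were of different tissue content. In vehicle mice 6 and 8 the 8 luminal epithelial genes, among them the keratins Krt18 and Krt19, summed to 43.3 and 136 CPM, the lowest of all mice, and BDE-47 mouse 6, with the lowest Sox10 above the floor, had a sum of 154 CPM. In vehicle mouse 4 and BDE-47 mouse 7 the luminal sums were 1579 and 1753 CPM, within the range of 634 to 2741 CPM of the other mice. Elf5, 1 of the luminal genes, stood at 0 log2(CPM) in vehicle mice 4, 6 and 8 and at 0.26 in BDE-47 mouse 7. It was also low in vehicle mice 3 and 5 (0.60 and 0.95), where Sox10 was above the floor. What part epithelium and nerve each had in Sox10 was not tested. In bulk tissue, fewer cells of a type and less RNA per cell cannot be told apart.

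Mbp (chr18:82475091-82585637, 17 RefSeq transcripts) was found in 14 of the 15 mice. Its levels were 4.39, 4.37, 3.36, 1.40, 5.14, 3.62, 4.83 and 5.83 log2(CPM) in vehicle mice 1 to 8 and 4.84, 1.85, 6.04, 0, 6.06, 2.52 and 6.06 log2(CPM) in BDE-47 mice 1 to 7. BDE-47 mice held both the 3 highest values and the only mouse at the floor, so their spread enclosed that of the vehicle mice. The mean was 3.91 ± 2.45 (SD, n = 7) against 4.12 ± 1.35 (SD, n = 8) in vehicle mice, a difference of -0.21 (limma standard error 0.92, 95% interval -2.06 to 1.64, adjusted p = 0.994), with an exact permutation p of 0.838. The sign rested on the scale and on single mice: the log2 ratio of the mean CPM was 0.53, and the difference was 0.44 without BDE-47 mouse 4, 0.13 without BDE-47 mouse 2, and close to 0 without vehicle mouse 8 (0.03) or BDE-47 mouse 6 (0.02).

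Pmp22 was the only one of the 6 genes above the floor in all 15 mice. Its levels were 5.25, 5.02, 6.17, 6.79, 5.85, 0.29, 5.57 and 5.23 log2(CPM) in vehicle mice 1 to 8 and 3.90, 5.04, 6.80, 6.90, 5.77, 5.69 and 7.12 log2(CPM) in BDE-47 mice 1 to 7. Vehicle mouse 6, 1 of the pair with B cell markers, was far below all others, at 19 reads, while the remaining 14 mice lay between 3.90 and 7.12. The mean was 5.89 ± 1.16 (SD, n = 7) in BDE-47 mice and 5.02 ± 2.00 (SD, n = 8) in vehicle mice. The difference of 0.87 (limma standard error 0.70, 95% interval -0.54 to 2.28, adjusted p = 0.982, exact permutation p = 0.390) was 0.19 without vehicle mouse 6 (exact permutation p = 0.712) and 0.11 without vehicle mice 6 and 8 (exact permutation p = 0.845).

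Prx was above the floor in few mice. It stood at 2.55, 0, 2.98, 0, 0, 0, 4.37 and 0 log2(CPM) in vehicle mice 1 to 8 and at 0, 5.12, 0.52, 0, 0, 2.75 and 0 log2(CPM) in BDE-47 mice 1 to 7. Thus 3 mice of each group were above the floor, and the highest mouse, at 34.7 CPM, had received BDE-47. The means were 1.20 ± 2.00 (SD, n = 7) and 1.24 ± 1.78 (SD, n = 8), a difference of -0.04 (95% interval -2.06 to 1.99, limma without the filter on low values; exact permutation p = 0.980). The sign of so small a difference turned with the scale, to 0.51 as the log2 ratio of the mean CPM. It also turned when any 1 of vehicle mice 1, 3 and 7 or of BDE-47 mice 1, 3, 4, 5 and 7 was left out, to at most 0.41 (without vehicle mouse 7).

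For Cnp the higher mean was that of the vehicle mice. Its levels were 3.90, 0, 5.21, 5.08, 0, 7.16, 4.99 and 6.72 log2(CPM) in vehicle mice 1 to 8 and 4.74, 5.24, 4.67, 0, 5.30, 0 and 0 log2(CPM) in BDE-47 mice 1 to 7. The highest values, 143 and 106 CPM, were in vehicle mice 6 and 8, the mice with B cell markers, and every other mouse was at or under 39.3 CPM. The mean was 2.85 ± 2.68 (SD, n = 7) in BDE-47 mice and 4.13 ± 2.75 (SD, n = 8) in vehicle mice, a difference of -1.28 (limma standard error 1.14, 95% interval -3.59 to 1.02, adjusted p = 0.982), with an exact permutation p of 0.338. Without vehicle mice 6 and 8 the difference was -0.35 (exact permutation p = 0.854), and without BDE-47 mouse 6 as well it turned to 0.13 (exact permutation p = 0.883).

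S100b was the scarcest of the 6, above the floor in 5 mice. It stood at 2.12, 0, 3.15, 0, 0, 0, 3.80 and 0 log2(CPM) in vehicle mice 1 to 8 and at 1.25, 0, 4.17, 0, 0, 0 and 0 log2(CPM) in BDE-47 mice 1 to 7. The highest mouse of each group, vehicle mouse 7 and BDE-47 mouse 3, held 209 and 250 reads, and 10 mice were at the floor. The means were 0.77 ± 1.57 (SD, n = 7) and 1.13 ± 1.63 (SD, n = 8), a difference of -0.36 (95% interval -2.06 to 1.34, limma without the filter; exact permutation p = 0.706). Leaving out vehicle mouse 7 brought it to 0.021.

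**Figure D1:**
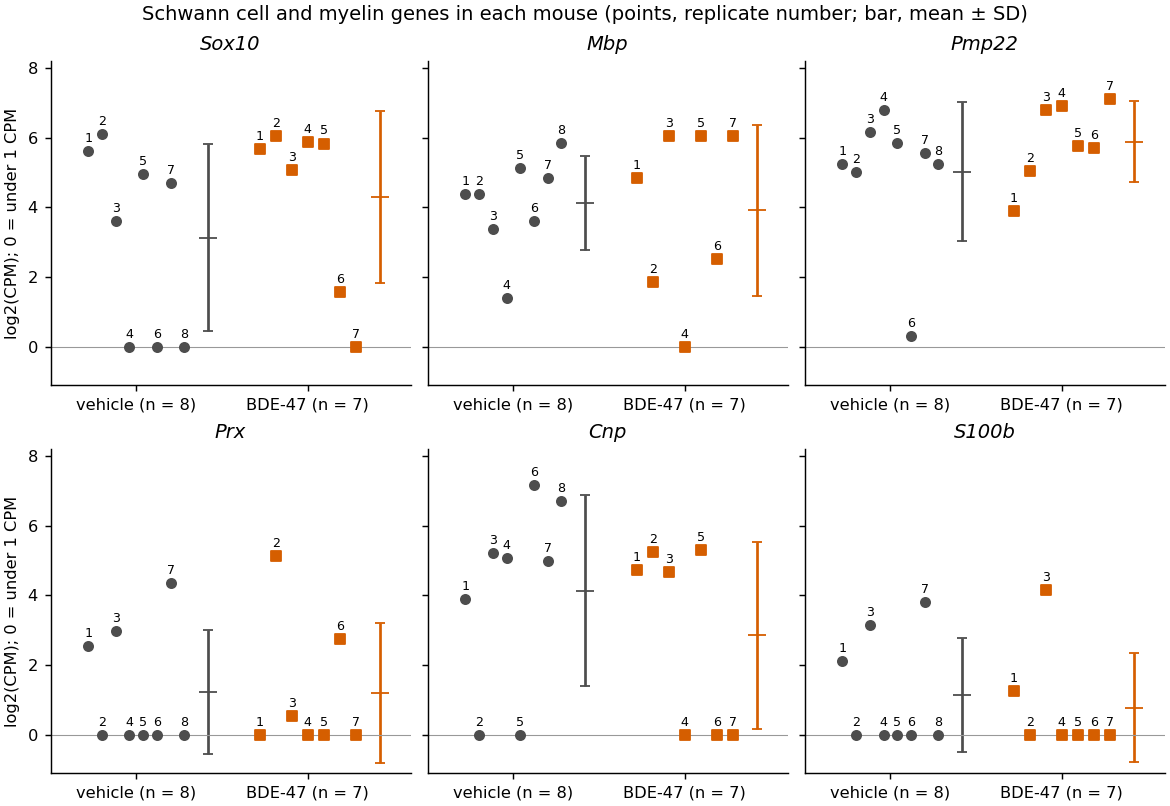
Level of each of the 6 Schwann cell and myelin genes in every mouse, in log2(CPM) on the y axis with genes under 1 CPM at 0, in 8 vehicle mice (grey circles) and 7 BDE-47 mice (orange squares). Numbers are replicate numbers and the bars beside the points are mean ± SD. The groups overlap for all 6 genes, and mice listed at 0 lie apart from the rest for Sox10 and Cnp.

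Taken over all 15 mice, the order of the mean levels was Pmp22 (5.43 log2(CPM)), Mbp (4.02), Sox10 (3.67), Cnp (3.53), Prx (1.22) and S100b (0.97). The SDs over the mice were 1.67, 1.87, 2.56, 2.70, 1.82 and 1.55, so that no neighbours in this order differed by more than the larger of their SDs. How often a gene was at the floor can be set beside other genes of like level. Among the 6608 genes with a mean of 10 to 100 CPM, the class of Pmp22, Mbp, Sox10 and Cnp, the median gene was at the floor in 2 mice, against 0, 1, 4 and 5 mice for these 4. Among the 4764 genes with a mean of 2 to 10 CPM, it was at the floor in 9 mice, against 9 for Prx and 10 for S100b.

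On the log2 scale, 2 of the 6 group means were past the 2-fold criterion that the study used for single genes. These were Sox10 (2.26-fold higher) and Cnp (0.411 of the vehicle level). Across all 52526 genes 6.36% were past 2-fold in either direction, and across the 9506 tested genes 26.3% were. The 4 tested members, 2 of which were past it on that scale, belong to the latter. As a ratio of mean CPM, Sox10 was 1.65-fold higher in BDE-47 mice, short of 2-fold, and Cnp was 0.403 of the vehicle level. The median difference of the 6 genes was -0.12, and that of the 4 tested was 0.33, beside -0.02 for all genes tested. All 6 limma intervals included 0 and reached from a more than 2-fold decrease to a more than 2-fold increase for Sox10, Mbp, Prx, Cnp and S100b, so that changes of that size could not be detected or set aside with these mice.

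**Figure D2:**
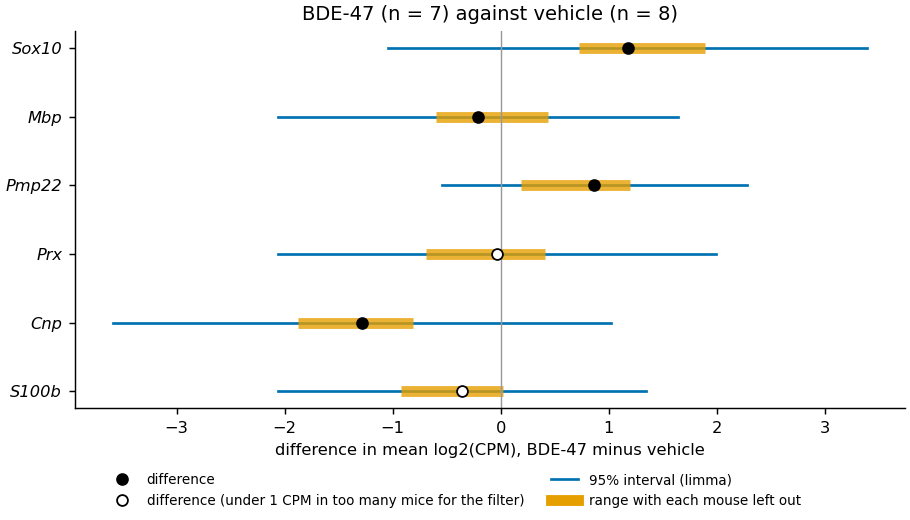
Difference in mean log2(CPM), BDE-47 (n = 7) minus vehicle (n = 8), on the x axis for each of the 6 genes. Points are differences, open where the gene was above the floor in too few mice for the filter, blue lines are 95% limma intervals, and orange bars are the range when each mouse was left out in turn. All 6 intervals include 0, and the orange bars of Mbp, Prx and S100b cross it.

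A nerve content score, the mean of the z-scored levels of the 6 genes with the vehicle mean set to 0, had a mean close to 0 in both groups. It was 0.02 ± 0.46 (SD, n = 7) in BDE-47 mice and 0 ± 0.55 (SD, n = 8) in vehicle mice. Vehicle mice ran from -0.77 (mouse 6) to 0.85 (mouse 7), with a median of -0.15, and BDE-47 mice from -0.49 (mouse 4) to 0.77 (mouse 3), with a median of 0.06. No test was made on the score, and its name is a label rather than a measure of nerve. A separate list of 15 further myelin genes did not follow it in every mouse. That list summed to 0 CPM in vehicle mouse 6, which had the lowest score. It summed to only 15.2 CPM in vehicle mouse 7, which had the highest. In vehicle mouse 2 (score -0.28) and BDE-47 mouse 4 (score -0.49) it summed to 148 and 137 CPM. All 6 genes were above the floor in vehicle mice 1, 3 and 7 and in BDE-47 mouse 3, and these 4 mice had the 4 highest scores. The score is made from the same 6 genes, so this is not a separate observation. At the other end, BDE-47 mice 4 and 7 had 2 of the 6 genes above the floor, though their summed levels of 178 and 205 CPM were among the higher ones. In BDE-47 mouse 4 these genes were Sox10 and Pmp22, and in BDE-47 mouse 7 Mbp and Pmp22. The summed CPM of the 6 genes was 121 to 200 in vehicle mice and 67.1 to 256 in BDE-47 mice, lowest in the muscle-rich BDE-47 mouse 6.

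**Figure D3:**
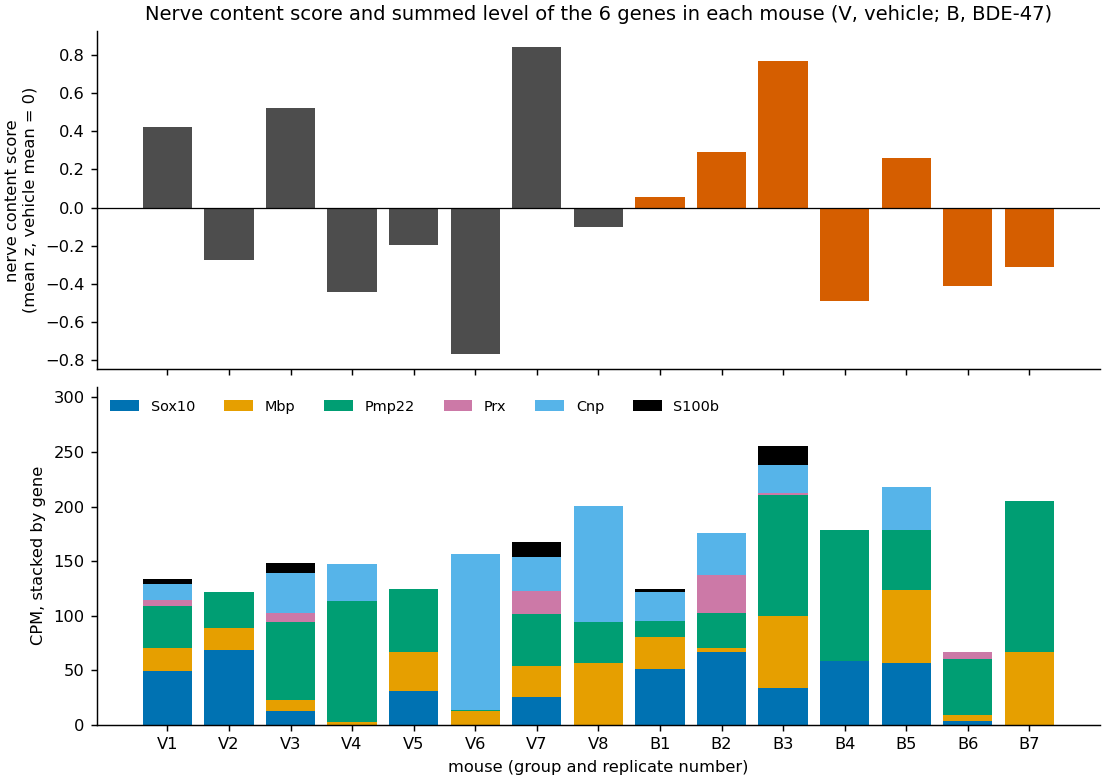
Nerve content score (upper panel, mean z-score with the vehicle mean at 0) and level of the 6 genes stacked in CPM (lower panel) for each vehicle mouse (V1 to V8) and BDE-47 mouse (B1 to B7). The score runs from -0.77 to 0.85 with no shift between groups, and different genes make up the sum in different mice, such as Cnp in V6 and Pmp22 in B4.

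The 6 genes varied little together from mouse to mouse. Of the 15 pairs, 10 had a positive and 5 a negative Pearson r over the 15 mice, with a median of 0.15. The highest was Prx with S100b (r = 0.40, permutation p = 0.145; Spearman rho = 0.53, permutation p = 0.0713). The lowest was Cnp with Pmp22 (r = -0.45, permutation p = 0.0778; rho = -0.41, permutation p = 0.129). After Benjamini-Hochberg adjustment over the 15 pairs the lowest p was 0.799 for Pearson and 0.898 for Spearman, so no pair passed. Leaving out the 2 mice farthest from the median on the x axis gave r = 0.47 for Prx with S100b and r = -0.40 for Cnp with Pmp22. Sox10 and its target Mbp had r = -0.02 (permutation p = 0.951) and Sox10 and Prx had r = 0.25 (permutation p = 0.371).

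Within the vehicle mice, Prx and S100b went closely together (r = 0.99, exact permutation p = 0.00298, 0.0446 adjusted over the 15 pairs). Both were at the floor in the same 5 of these 8 mice and stood in the same order in vehicle mice 1, 3 and 7. Within the BDE-47 mice they did not (r = -0.23, exact permutation p = 0.762): Prx was highest in BDE-47 mouse 2, where S100b was at the floor, and S100b in BDE-47 mouse 3, where Prx stood at 0.52. The difference between the groups was not tested. The r of 0.99 rests on the 3 vehicle mice above the floor. Its adjustment covers the 15 pairs within vehicle mice, not those tested over all 15 mice or within BDE-47 mice. Sox10 and Cnp had r = -0.76 within vehicle mice and r = 0.70 within BDE-47 mice, neither of which passed the adjustment over the 15 pairs.

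**Figure D4:**
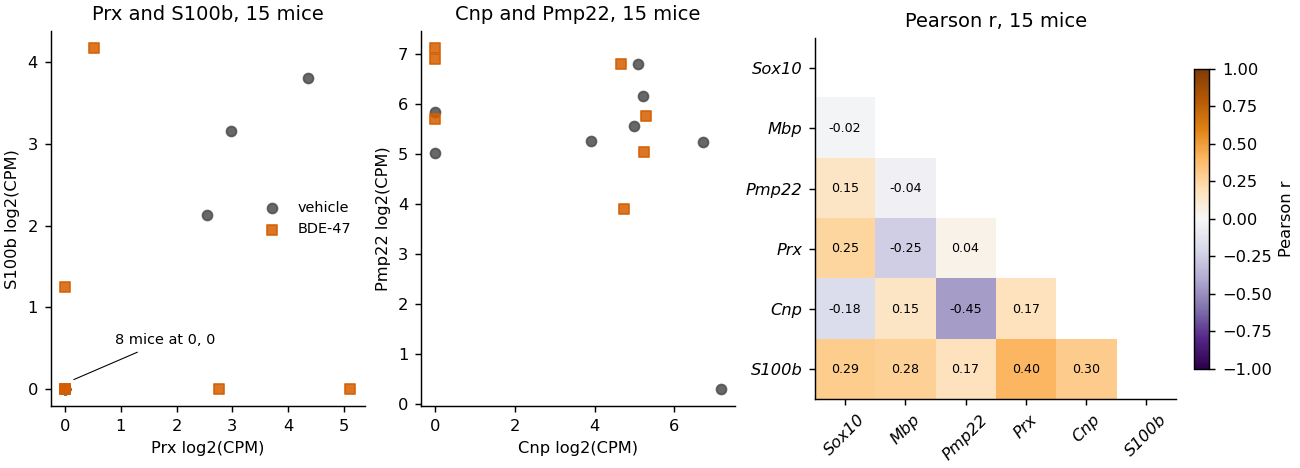
Left and middle, log2(CPM) of Prx against S100b and of Cnp against Pmp22 in 15 mice (grey circles vehicle, orange squares BDE-47). Right, Pearson r over the 15 mice for the 15 pairs of genes, from -0.45 to 0.40. For Prx and S100b, 8 mice lie at the floor for both.

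The genes whose levels across the 15 mice were most like each member, among the 9506 tested, belong to other lists or to none. For Sox10 they were Sqle (r = 0.91), Syap1 (0.86) and Elf5 (0.85), of which Elf5, a transcription factor of luminal progenitors, is among the luminal markers. For Pmp22 they were Cald1 (r = 0.93), Ecm1 (0.92) and Atf5 (0.89), and for Mbp Ep300 (0.87), U2af1 (0.86) and Trp53rka (0.85). For Cnp they were Ppil4, Arl14ep and Ppp6r3 (0.87 each). For Prx they were Rnf170 (r = 0.89), Prdm10 (0.87) and Tmem104 (0.83), and for S100b Clic6 (0.86), Clec2d (0.84) and Glis2 (0.82). These are the highest of many correlations over 15 points and are given as a description only.

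The other genes of myelin and Schwann cells were as uneven. Of 15 further genes of myelin structure and lipid, 10 were above the floor in some mouse, and Mag, Pmp2, Gjb1, Gjc3 and Ugt8a were at the floor in all 15. Of the list, 3 genes could be tested, and none had an unadjusted limma p under 0.05. The whole list summed to 0 CPM in vehicle mice 6 and 8, the mice with the highest Cnp, and to 15.2 to 148 CPM in the others.

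Among 8 further transcription factors of the lineage, Pou3f1, Pou3f2, Foxd3 and Sox2 were at the floor in all mice and 4 could be tested, none with an unadjusted limma p under 0.05. The most abundant were Tfap2a (mean 4.45 log2(CPM)), known in neural crest and epithelium, and Nab1 (3.15), a partner of the EGR factors. Egr2, the myelin regulator, was above the floor in 3 of 8 vehicle and 5 of 7 BDE-47 mice, with means of 0.84 ± 1.64 (SD, n = 8) and 2.23 ± 2.25 (SD, n = 7), a difference of 1.39 (limma standard error 0.94, adjusted p = 0.982; exact permutation p = 0.186). Egr2 was highest in BDE-47 mouse 4 (5.84), where Sox10 stood at 5.87 but Mbp, Prx, Cnp and S100b were at the floor. Of 14 surface and signalling genes, 12 were found in some mouse, 5 could be tested and none had an unadjusted limma p under 0.05. Scn7a, a sodium channel-like gene of non-myelinating Schwann cells, was above the floor in all 15 mice (mean 5.00). Erbb3, the neuregulin receptor, was above it in 12, with means of 4.37 ± 2.11 (SD, n = 7) in BDE-47 and 3.12 ± 2.23 (SD, n = 8) in vehicle mice (exact permutation p = 0.284). The mice with Erbb3 at the floor were vehicle mice 6 and 8 and BDE-47 mouse 6, those with the lowest luminal sums. Which cells gave its signal was not tested. Cdh19, a marker of Schwann cell precursors, was found in 1 mouse.

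Markers of cells that share genes with Schwann cells were scarce. Of 6 oligodendrocyte genes, 5, including Mog, were at the floor in every mouse, and Olig1 reached 3.52 CPM in 1 mouse. The 6 melanocyte genes, a list that matters because Sox10 is also active there, summed to at most 22.8 CPM, with Tyr and Tyrp1 at the floor in all mice, Mitf above it in 6 mice and Pmel in 1. Axon and neuron genes came to at most 16.7 CPM in BDE-47 mice, with 3 of the 10 at the floor throughout. In vehicle mouse 3 they came to 75.6 CPM, and in the other vehicle mice to at most 25.5 CPM. Stmn2, a tubulin-binding protein of axons, was the only one that could be tested: it was above the floor in 5 of 8 vehicle and 2 of 7 BDE-47 mice, a difference of -1.77 (exact permutation p = 0.115). Uchl1, a neuronal deubiquitinase, reached 3.94 CPM at most. Of the markers of mammary tissue, 7 of 8 adipocyte and 6 of 8 luminal genes were above the floor in all mice, with Fabp4 and Cfd at means of 12.35 and 11.88 log2(CPM), and Krt18 and Krt19 at 7.97 and 7.35.

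**Figure D5:**
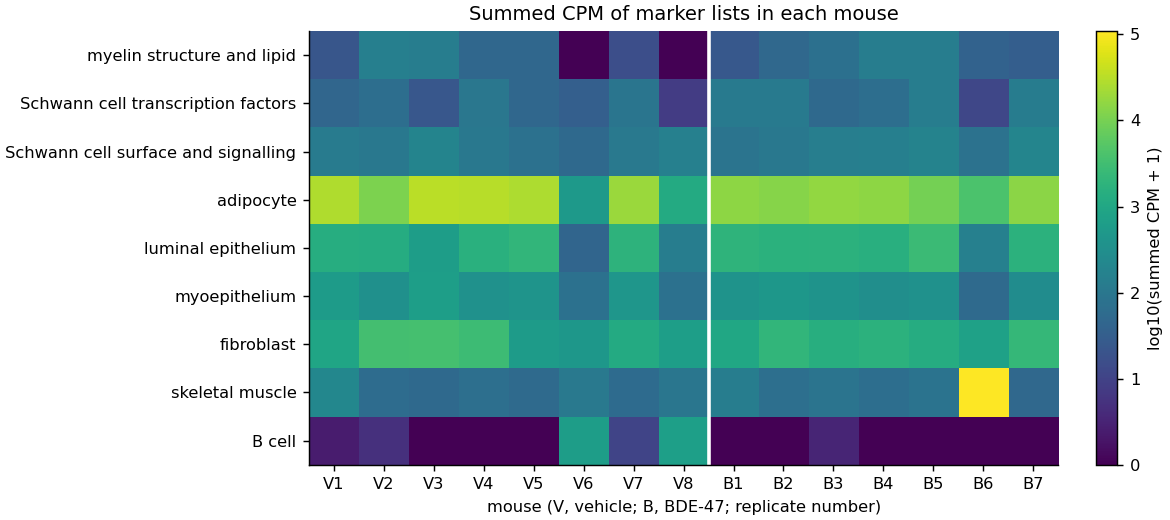
Summed CPM of marker lists (rows, colour on a log10 scale after adding 1) in each vehicle mouse (V1 to V8) and BDE-47 mouse (B1 to B7). V6 and V8 have B cell genes at 632 and 697 CPM, low adipocyte and luminal genes and no myelin list gene above 1 CPM, and B6 has skeletal muscle genes at 108851 CPM.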

How the data were processed

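Total RNA of the left 4th mammary tissue was made into Lexogen QuantSeq 3′ FWD libraries by the authors, mapped with STAR 2.5.3a to GRCm38 (versions from the submitters' processing notes) and scaled to counts per 1000000 mapped reads. The deposited values are log2(CPM), with genes under 1 CPM listed at 0. The total of a library (10061000 to 19575000 reads) was taken as the smallest at which 100% of its values stood for whole reads, to within 0.1 of a read. Values under the floor are lost, so no count model was used. From 52636 entries, 110 repeats of a gene name were dropped, leaving 52526.

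Groups came from the labelled treatment, and all 15 mice carry the same experiment number. Genes reaching 1 CPM in 7 or more mice were fitted in limma 3.58.1 (R 4.3.3, trend in the prior variance, Benjamini-Hochberg over all genes tested), without the xenograft covariate. Single genes were compared by two-sided exact permutation over all choices of 7 of 15 mice (smallest possible p 0.000155), and pairs by permutation with 100000 resamples (exact within groups), in Python 3.11.15 with scipy 1.17.1. Both were tested on simulated data. The members and lists were chosen with earlier results of these data known. Genes named are the 6 members, the 2 most abundant of each list, any list gene with an unadjusted limma p under 0.05, and the 3 genes most like each member. Other genes of the lists were named after their values were seen. Some genes of the lists are not reported here. Alternatives were the added constant, the log2 ratio of mean CPM, the filter, size factors, the replicate block, each mouse left out, leaving out the 2 mice with B cell markers, other members or scales in the score and, chosen after seeing the data, leaving out the 3 mice that stood apart.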

Additional observations from a re-analysis of the deposited data

Results flagged for a closer look

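Within the groups of 7 or 8 mice, 28 sets of values were tested for a single mouse far from the others. Dixon's test was used at its 95% critical value, and 5 sets were marked. For normally distributed values it marks about 1 set in 20 by chance. That rate does not hold for sets with many mice at the floor, such as S100b and the B cell genes. The 5 marked sets therefore cannot be set against it. Pmp22 was lowest in vehicle mouse 6, at 0.29 log2(CPM), against 5.02 or more in the other vehicle mice. S100b was highest in BDE-47 mouse 3, at 4.17 log2(CPM), where the other BDE-47 mice were at 1.25 or at the floor. The skeletal muscle genes summed to 108851 CPM in BDE-47 mouse 6, the mouse with the lowest sum over the 6 Schwann cell and myelin genes. They also stood out, at a far lower level, in vehicle mouse 1 with 213 CPM. The B cell genes summed to 2.37 CPM in BDE-47 mouse 3, the only BDE-47 mouse with any above the floor. With the others all at 0, any value above 0 would have been marked. The part of these mice's tissue content in the levels of the 6 genes was not tested.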

How the results depend on the processing

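Over all the settings tried, no difference between the groups for any of the 6 genes had a p under 0.05. Sox10 and Pmp22 had the higher mean in BDE-47 mice in every setting, by 0.73 to 1.89 and by 0.19 to 1.20 on the log2 scale with each mouse left out, but by 0.13 and 0.11 without the 2 mice with B cell markers. The sign of Mbp turned to 0.53 as the log2 ratio of mean CPM, 0.035 with the replicate block and 0.22 without the 3 mice that stood apart, and its range with each mouse left out was -0.60 to 0.44. The sign of Prx turned to 0.15 and 0.047 with constants of 0.1 and 1 added to CPM, 0.074 with median-of-ratios size factors and 0.51 as the log2 ratio of mean CPM, with a leave-one-out range of -0.69 to 0.41. For S100b that range was -0.93 to 0.021 and for Cnp -1.87 to -0.81, while Cnp turned to 0.13 without the 3 mice that stood apart. Same-numbered mice did not deviate together in their levels (r from -0.02 to 0.05), which cannot exclude that they were paired in some other way. The replicate block held only numbers present in both groups and so left out vehicle mouse 8. For the 6 genes its differences were those found without that mouse. The block gave 0 adjusted calls, and 381 unadjusted limma calls in place of 442, beside 345 without vehicle mouse 8 alone. Of the list genes, Cldn5 no longer had an unadjusted limma p under 0.05 with the block (0.0955) or without vehicle mouse 8 alone (0.087). The adjusted limma count was 0 in every setting but the one without those 3 mice, where it was 2 (Wfdc18 and Chchd2, neither a member and both named after their values were seen). Between members, 1 pair passed the adjustment within vehicle mice (Prx with S100b, r = 0.99) and its sign turned within BDE-47 mice (r = -0.23). Over all 15 mice, r of this pair was 0.21 to 0.64 with each mouse left out, and the r within vehicle mice was not recomputed in this way. The cause of these changes was not tested. The cut at 1 CPM limits the 6 genes at about 10 to 20 reads per library, under which a gene is listed at 0.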

Other observations

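Of 74 list genes tested, 2 (2.7%, beside 4.65% of all genes tested) had an unadjusted limma p under 0.05, and both were endothelial. Pecam1, an adhesion molecule of endothelium, was at 4.67 ± 1.14 (SD, n = 7) log2(CPM) in BDE-47 mice and 5.99 ± 1.08 (SD, n = 8) in vehicle mice, a difference of -1.32 (exact permutation p = 0.0407; limma adjusted p = 0.982). Cldn5, a tight junction protein of endothelium, was at 2.82 ± 1.49 (SD, n = 7) and 4.56 ± 0.89 (SD, n = 8), a difference of -1.74 (exact permutation p = 0.00979; limma adjusted p = 0.982). Neither passed the adjustment over all genes, and without the 3 mice that stood apart the differences were -1.08 for Pecam1 and -1.24 for Cldn5, neither with an unadjusted limma p under 0.05. The unadjusted limma p of Cldn5 was also over 0.05 with 0.1 added to CPM (0.0525), with size factors (0.0607) and without the 2 mice with B cell markers (0.175). That of Pecam1 stayed under 0.05 in these settings (0.0426, 0.0415 and 0.0338). With each mouse left out in turn, that of Pecam1 was over 0.05 without vehicle mouse 2 (0.0905), 3 (0.0615) or 4 (0.0633). It was also over 0.05 without BDE-47 mouse 4 (0.0688) or 6 (0.0859). That of Cldn5 was over 0.05 in most of these fits, up to 0.117 without BDE-47 mouse 4. It stayed under only without vehicle mouse 7 (0.0279) or without BDE-47 mouse 1 (0.0436), 5 (0.0445) or 7 (0.0302). The list did not move one way: Vwf, which encodes von Willebrand factor, differed by 2.18 (limma adjusted p = 0.982; exact permutation p = 0.0726), Emcn by 0.94 and Cdh5 by 0.64, all 3 named after their values were seen, and the median difference of the 8 genes was -0.01. Egfl7, the second most abundant of the list, differed by -0.06.

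Among the other lists, the most abundant genes were Dcn and Col3a1 of fibroblasts (8.83 and 7.72 log2(CPM) over all mice), Acta2 and Oxtr of myoepithelium (6.62 and 5.01), C1qa and C1qb of macrophages (6.69 and 5.84), Krt10 and Krt1 of keratinocytes (3.94 and 2.39), Acta1 and Tnnc2 of skeletal muscle (5.60 and 4.42), and Cr2 and Ms4a1 of B cells (1.20 and 1.06).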
